A study of Mus musculus with 14 samples.

Results

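The hippocampus of wild-type (WT) female mice was described on its own, as the unmutated reference tissue of a study of the membrane estrogen receptor GPR30, which is encoded by Gper1. The 3 libraries labelled WT, out of 14 in the series, were taken by their genotype label, and no library was left out. They came from C57BL/6J mice at 10 weeks of age. The other libraries of the series came from GPR30-knockout animals and were not compared here. The study describes its control animals as free of mutations. The labels give the genotype as WT and do not mention a floxed allele or a Cre transgene. Whole hippocampal tissue was used, so that neurons, glia, vessels and any attached tissue contributed RNA, and fewer cells of a type could not be told apart from less RNA per cell. Each library is named WT1, WT2 or WT3 after its label. The sources used here do not state whether every library came from its own mouse, so the spread given below is that between these samples and may be technical.

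Polyadenylated RNA was sequenced, and the level of each of 55450 annotated genes was read as FPKM. This is the number of fragments scaled by exon length and by the mapped fragments of the library. The length taken for each gene was not checked here. Comparisons of levels between genes are therefore approximate. The libraries held 57747516, 62669865 and 56399993 counts. Values after ± are the SD over the 3 libraries (n = 3), and with 3 libraries no test was made. Transcripts typical of skeletal muscle, heart, kidney and testis were present in some of these libraries and nearly absent from others. They are described with their values further on, and the marker genes they share with brain cells are named where they occur.

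The hippocampus is the cortical structure needed for forming new episodic and spatial memories. Its principal cells are glutamatergic: granule cells of the dentate gyrus project to CA3 pyramidal cells, which in turn project to CA1. These neurons carry large numbers of spines and are surrounded by GABAergic interneurons, by astrocytes that take up glutamate, and by oligodendrocytes that myelinate axons. The labelled tissue was checked against markers of these cells. All 8 excitatory neuron markers and all 10 markers of dentate granule cells had a mean of at least 1 FPKM, as did 7 of 7 measured CA1 markers and 8 of 8 CA3 markers. So did 12016 of all 21901 protein coding genes, 5 of 8 thalamus markers, 7 of 9 striatum markers and all 15 liver genes. Passing this level therefore does not by itself set hippocampus apart from other tissue. Of 8 hypothalamic genes, Hcrt, Pmch, Avp and Oxt had no count in any library, which allows up to 3 counts per library, or 0.05195, 0.0479 and 0.0532 CPM (counts scaled to a common library total) in WT1, WT2 and WT3. These limits cover counting error only. The other 4 had some signal, the highest being Pomc at 2.11, 1.81 and 0.6201 FPKM, and Agrp had 0, 30 and 8 counts.

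A gene was taken as expressed at 1 FPKM or more in all 3 libraries, and 12659 genes passed this level. At 10 FPKM or more 4164 genes were found in all 3 libraries, at 100 FPKM 332 and at 1000 FPKM 16. A further 2866 genes reached 1 FPKM in only 1 or 2 of the libraries. No count was recorded in any library for 27505 genes, or 49.6% of the annotation. Of 21901 protein coding genes, 11107 (50.7%) were expressed, with a median of 7.05 FPKM.

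Protein coding genes held 82.1% ± 0.132 of the summed FPKM and 95.01% ± 0.1003 of the counts. Short transcripts weigh more in FPKM than in counts, and classes with short members therefore held a larger share of the former. Unprocessed pseudogenes held 8.19% ± 0.448 of the summed FPKM with 47 expressed members. Nearly all of this, 8.05% ± 0.44 of the summed FPKM, was listed for 7 copies of mitochondrial DNA on chromosome 1. Their levels are uncertain, as described below. Processed pseudogenes, intronless copies of mRNAs, held 4.83% ± 0.0814 with 906 expressed members of 10237. Their share of the counts was 1.01%. Whether reads of the parent mRNAs were placed on these copies was not checked. The levels of copies and parents are therefore uncertain, and a listed level does not show that a copy is transcribed. Long intergenic noncoding RNAs held 0.909% ± 0.176 with 181 of 6028 expressed, and antisense RNAs 0.275% ± 0.0128 with 141 of 3048. The share of the former was 0.782%, 0.836% and 1.11% in WT1, WT2 and WT3. Their most abundant model, AY036118, was also highest in WT3, at 761, 789.5 and 1507 FPKM. The share was not computed without this model, so a rise in WT3 is not shown for the other lincRNAs. The median CV (SD divided by mean) between libraries was 9.76% for expressed protein coding genes, 16.9% for lincRNAs and 19.7% for processed pseudogenes.

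The 100 most abundant genes of a library held 35.6%, 34.2% and 33.8% of its summed FPKM in WT1, WT2 and WT3, and the mitochondrial genome alone accounted for 16.1%, 14.97% and 14.7%. The 13 mRNAs of the mitochondrial genome encode subunits of the respiratory chain and of ATP synthase. Their summed level was 42112, 38239.9 and 37398 FPKM, and all 13 were highest in WT1. The most abundant gene was mt-Co1, which encodes the catalytic subunit of cytochrome c oxidase, at 10657, 9317 and 9917 FPKM. Its partner subunits mt-Co3 (6028 ± 487 FPKM) and mt-Co2 (4652 ± 305 FPKM) followed, and then the cytochrome b gene mt-Cytb at 3384 ± 231 FPKM. The ribosomal RNA mt-Rnr1 was nearly equal in the libraries, with 2059.8, 2035 and 2065 FPKM, whereas mt-Nd4, a subunit of complex I, ranged more widely at 1848, 1794 and 1443 FPKM.

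Among these mitochondrial genes stood 7 unprocessed pseudogenes of chromosome 1, which together are a copy of a stretch of mitochondrial DNA in the nuclear genome. Gm29216 (ENSMUSG00000101249, chr1:24615706-24616197, - strand, GRCm38) was listed at 7757, 6474 and 6837 FPKM, Gm28437 at 6234, 5503 and 5986 FPKM and Gm28661 at 4918, 4622 and 4276 FPKM. In a local alignment of GENCODE transcripts, 6 of the 7 were identical to their mitochondrial partner over the whole aligned length, and Gm29216 differed from mt-Co1 by 1 base in 483. The substitution A1066T, with positions counted from 1 at the 5′ end of mt-Co1, is the only difference within the 483 aligned bases, and it is shown in capitals in the stretch around it:
mt-Co1: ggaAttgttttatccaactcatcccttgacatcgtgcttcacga
Gm29216: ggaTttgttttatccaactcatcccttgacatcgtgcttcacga
For the shortest copy, Gm10222 (ENSMUSG00000067736, chr1:24612407-24612700, - strand), the whole transcript of 294 bases was the same as the first 294 of 297 bases of mt-Nd4l, a subunit of complex I, so no base is in capitals:
Gm10222: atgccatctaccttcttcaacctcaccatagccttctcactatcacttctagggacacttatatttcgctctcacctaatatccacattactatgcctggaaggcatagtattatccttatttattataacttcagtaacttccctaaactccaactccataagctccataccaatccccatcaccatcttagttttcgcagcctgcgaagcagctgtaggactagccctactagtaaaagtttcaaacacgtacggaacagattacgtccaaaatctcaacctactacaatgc
Copies and partners were also close in counts where their lengths matched. Gm10222 had 16791, 17991 and 13249 counts and mt-Nd4l 16963, 18422 and 13222, a ratio of 0.990, 0.977 and 1.002. Gm28661 had 218198, 223144 and 184464 counts beside 220848, 225665 and 188349 for mt-Co2. Gm10925 stood apart, with 3.94, 3.97 and 3.94 times the counts of its partner mt-Atp6. Reads that fall within an identical stretch cannot be assigned to either locus, whereas mt-Co1 and mt-Nd4 also have long stretches outside their copies, and the levels of all 7 copies and of their partners are uncertain. Without mitochondrial genes and these copies, the 100 most abundant genes held 17.7% ± 0.0968 of the summed FPKM.

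**Figure D1:**
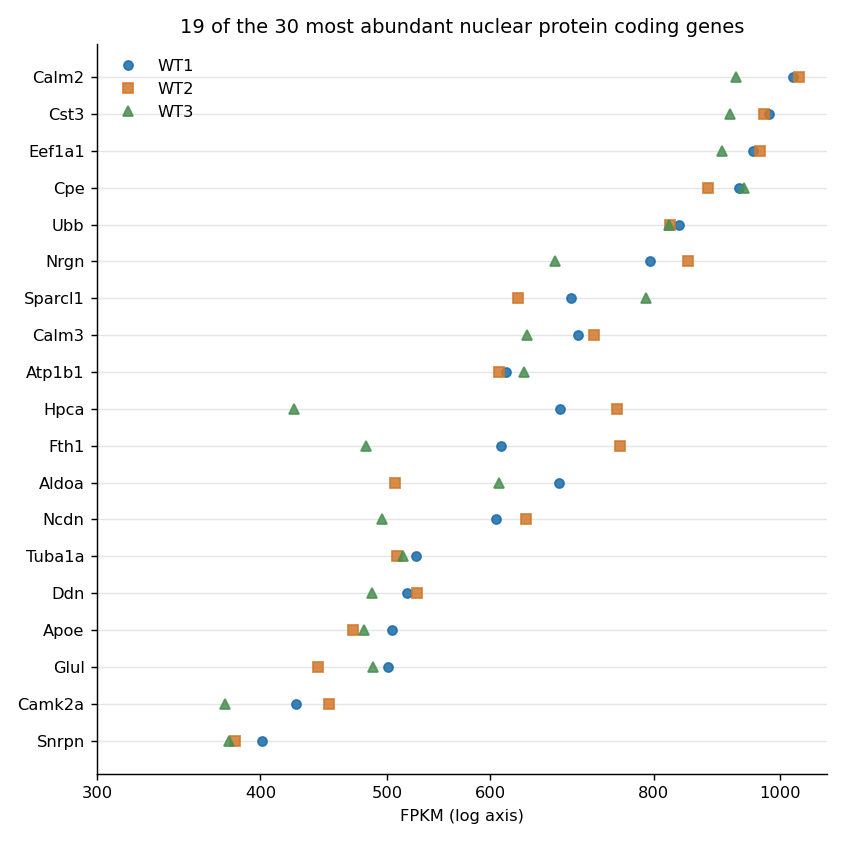
The 19 nuclear protein coding genes that are described with their values, out of the 30 of highest mean FPKM, 1 row a gene and 1 point a library (circles WT1, squares WT2, triangles WT3), with FPKM on a log axis. Most genes show 3 points close together, while the points of Hpca, Fth1 and Aldoa lie apart, with Hpca lowest in WT3.

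The most abundant nuclear mRNA was Calm2, with 1022, 1033 and 926 FPKM. It encodes calmodulin, the calcium sensor that activates CaMKII, and Calm3, which encodes the same protein, reached 700.5, 720.5 and 641 FPKM. Nrgn encodes neurogranin, a postsynaptic protein that holds calmodulin in spines, and was measured at 796, 850.2 and 673 FPKM. Camk2a, the alpha subunit of CaMKII, had 426, 452 and 376 FPKM and the largest count of any nuclear protein coding gene, 207262, 239004 and 177590. The calcium sensor Hpca (hippocalcin) was less even, at 678, 750.2 and 425 FPKM, with WT3 well below WT1 and WT2. Neurochondrin (Ncdn) at 606, 638 and 495 FPKM and the dendritic mRNA of dendrin (Ddn) at 518, 527 and 487 FPKM completed the neuronal genes of this rank. WT3 was lowest for all 7 of these transcripts.

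Housekeeping and glial mRNAs made up most of the remaining top ranks. Cst3, which encodes the protease inhibitor cystatin C, had 981, 972 and 916 FPKM, and the translation factor Eef1a1 954, 966 and 903 FPKM. The carboxypeptidase gene Cpe, which trims propeptides, was at 931, 879.9 and 939 FPKM. Ubiquitin B (Ubb) was the steadiest of the 30 genes, at 837, 823 and 822 FPKM with a CV of 1.01%. Sparcl1 (hevin), an astrocyte-secreted matrix protein, had 692, 630.4 and 789 FPKM and Apoe, the lipid carrier made by astrocytes, 504, 471 and 480.4 FPKM. The iron store gene Fth1 ranged more widely, with 611, 754 and 482 FPKM in WT1, WT2 and WT3. Atp1b1, which encodes the beta subunit of the sodium pump, was at 621 ± 13.9 FPKM. Counted in reads rather than per kilobase, the axonal motor gene Kif5a also entered the first 15 genes, with 160796, 175793 and 168072 counts.

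Several of the highest values outside protein coding genes belonged to models that overlap other transcripts. The lincRNA model AY036118 (ENSMUSG00000105361, chr17:39847113-39848035, - strand) was listed at 761, 789.5 and 1507 FPKM, and the pseudogene model CT010467, which contains it on the same strand, at 215, 253 and 455 FPKM. Both were about equal in WT1 and WT2 and higher in WT3. Reads in the shared stretch could be given to either model, so both levels are uncertain. The origin of these reads was not tested. The other leading lincRNAs were 2900097C17Rik at 179.9, 204 and 216 FPKM and the maternally expressed Meg3 at 90.6, 72.9 and 98.8 FPKM. Among longer noncoding transcripts with known roles, the nuclear speckle RNA Malat1 was at 41.98, 42.9 and 44.7 FPKM, Snhg11 at 148, 122 and 157 FPKM and Peg13 at 56.02, 54.8 and 58.1 FPKM. Of the 19 listed long noncoding RNAs found in the table, 14 had a mean of at least 1 FPKM.

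The miRNA and snoRNA models have to be read against their hosts, since the libraries were size-selected from fragmented mRNA and mature miRNAs are too short to enter them. Of 37 expressed miRNA models 28 (75.7%) overlapped an expressed longer gene on the same strand, and so did 18 of 22 snoRNA models. Gm27597 (80 bases, 781, 727 and 748 FPKM) lies within the ribosomal protein gene Rpl19, Gm26377 (689, 679 and 712 FPKM) within Eef1a1. The snoRNA model Gm22357 (21.7, 21.6 and 25.7 FPKM) lies within the snoRNA host gene Gas5.

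Among the miRNA models, Mir8114 was high in WT2 and WT3 and nearly absent from WT1. It was singled out after its values were seen. Its hairpin (chr1:153899926-153900036, + strand, GRCm38.p6) shares 93 of its 111 bases with Glul, the gene of the astrocyte enzyme glutamine synthetase. The hairpin from RefSeq is shown because reads of either gene can fall on it, with the mature miRNA of 21 bases in capitals, followed by the mature miRNA with its seed (bases 2 to 8) in capitals:
Mir8114: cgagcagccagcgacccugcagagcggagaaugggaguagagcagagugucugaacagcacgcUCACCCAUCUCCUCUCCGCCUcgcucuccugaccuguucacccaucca
mature Mir8114: uCACCCAUcuccucuccgccu
Mir8114 had 1, 7294 and 6256 counts in WT1, WT2 and WT3, or 0.0369, 927 and 889.6 FPKM, while Glul had 108400, 104362 and 102670 counts. WT1 stood apart from WT2 and WT3. Summed over both models, the libraries were close, with 1877, 1781.7 and 1931 CPM.

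Markers of excitatory neurons summed to 1528, 1693 and 1385 FPKM in WT1, WT2 and WT3. Slc17a7, the vesicular glutamate transporter VGLUT1, was lower in WT1 than in the others, at 131, 206 and 194 FPKM. The transcription factor Neurod6 was at 91.7, 100.01 and 68.5 FPKM and the neuronal splicing factor Rbfox3, detected as NeuN, at 38.8, 38.3 and 33.7 FPKM. Neocortical projection neuron factors were also present, with Tbr1 at 7.000, 6.66 and 8.11 FPKM and Fezf2 at 14.7, 12.03 and 18.2 FPKM.

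Most markers of the hippocampal fields had a mean of at least 1 FPKM. The exceptions were 2 of 7 for CA2, among them Map3k15 at 0.268, 0.612 and 0.245 FPKM, and 3 of 7 for the mossy cells of the hilus, among them Gal at 0.758, 0.146 and 0 FPKM. In the dentate gyrus list, the synaptic organizer C1ql2 had 31.8, 32.9 and 25.1 FPKM, calbindin (Calb1) 22.99, 23.6 and 28.3 FPKM and Prox1, the homeobox factor of granule cells, 8.71, 11.5 and 8.43 FPKM. The list summed to 102, 116 and 93.8 FPKM. For CA1, Wfs1 reached 34.8, 30.98 and 36.04 FPKM and Fibcd1 32.9, 32.5 and 36.6 FPKM, and their 3 values lay close together. Mpped1, from the same list, did not follow them, at 22.2, 7.27 and 7.41 FPKM. For CA2, Pcp4 was at 136, 173 and 128 FPKM and Rgs14 at 24.9, 27.6 and 17.6 FPKM. For CA3, Bok was at 27.2, 33.95 and 14.2 FPKM and the kainate receptor gene Grik4 at 9.62, 9.802 and 6.605 FPKM. Bok, Rgs14 and Grik4 were each highest in WT2 and lowest in WT3, but the CA3 list did not share 1 order, since 3 of its 8 members were highest in WT2 and 4 in WT3, such as Grp at 15.5, 12.5 and 21.9 FPKM. All 6 subiculum markers, Nr4a2, Nts, Fn1, Gpr101, Ly6g6e and Tpbg, were lowest in WT2 and highest in WT3, with sums of 26.8, 19.6 and 44.9 FPKM. All 7 measured neocortex markers were also highest in WT3, and 6 of the 7 were lowest in WT2, with sums of 49.9, 45.7 and 56.4 FPKM.

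Interneuron markers summed to 728, 677 and 753 FPKM, with Pvalb, described below, as part of the sum. Of the 13 members, 9 were highest in WT3 and 8 were lowest in WT2. The peptide gene Sst was the most abundant at 271, 245 and 327 FPKM, before Cck at 147, 128 and 169 FPKM and Npy at 79.3, 77.5 and 67.9 FPKM. The GABA-synthesizing enzymes Gad1 and Gad2 were at 38.7, 37.9 and 43.1 FPKM and 15.5, 17.5 and 17.3 FPKM, and the vesicular GABA transporter Slc32a1 at 18.7, 20.6 and 23.4 FPKM. Gad1 and Slc32a1 were highest in WT3 and Gad2 in WT2. Pvalb, which encodes parvalbumin, was much lower in WT3, at 94.5, 92.1 and 33.1 FPKM. Parvalbumin is also a protein of fast skeletal muscle, and the muscle genes were low in the same library, WT3, so the share of Pvalb that came from interneurons was not determined. Of the 8 genes listed for newborn neurons 5 had a mean of at least 1 FPKM. Calretinin (Calb2), which interneurons and mossy cells also express, was the highest at 33.7, 45.7 and 39.97 FPKM, before Neurod1 at 4.79 ± 0.752 FPKM. Doublecortin (Dcx) was at 1.302, 1.15 and 1.502 FPKM and the proliferation marker Mki67 at 0.172, 0.285 and 0.0704 FPKM.

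**Figure D2:**
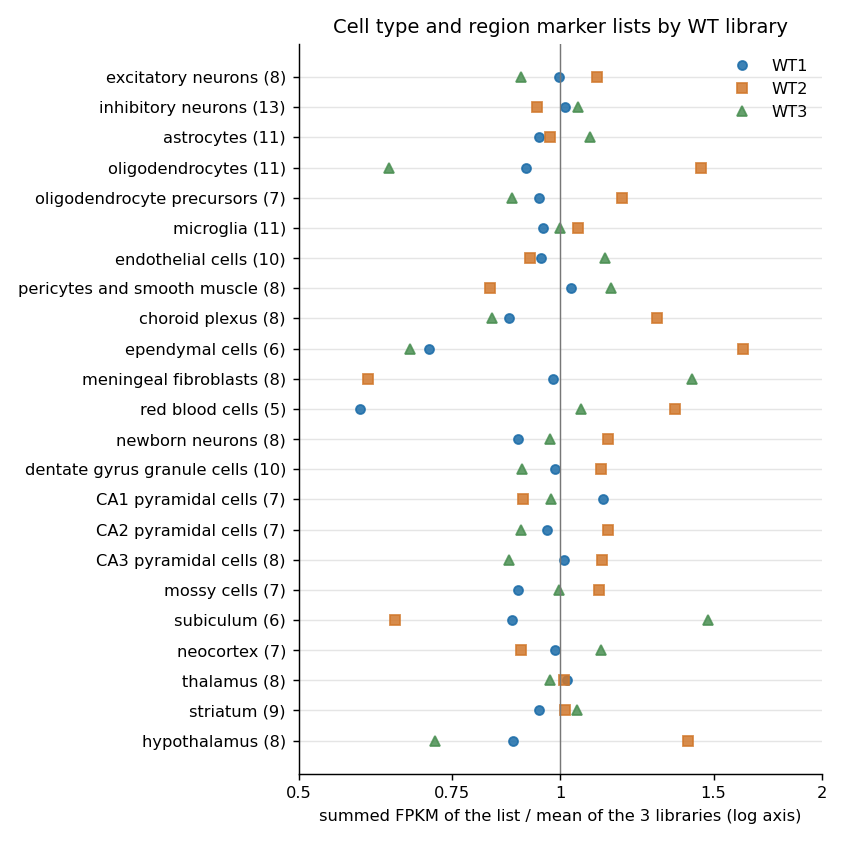
Summed FPKM of each cell type or region marker list divided by its mean over the 3 WT libraries (log axis), 1 row a list with its number of measured genes in parentheses and 1 point a library. Neuron, astrocyte and microglia lists stay near 1, whereas the oligodendrocyte and ependymal lists lie highest in WT2, the red blood cell list lowest in WT1, and the meningeal and subiculum lists lowest in WT2 and highest in WT3. The inhibitory neuron list includes Pvalb, which is also a skeletal muscle gene.

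Astrocyte markers were steady, summing to 609.6, 626 and 698 FPKM. The glycolytic enzyme Aldoc had 244, 204 and 265 FPKM, the intermediate filament gene Gfap 102, 119.7 and 97.9 FPKM and the water channel Aqp4 13.9, 15.6 and 12.5 FPKM. The glutamate transporter gene Slc1a2 was lower in WT1, at 74.4, 112 and 133 FPKM, while the related Slc1a3 was level at 31.8, 33.3 and 37.8 FPKM. Microglia markers summed to 168, 184 and 176 FPKM, the smallest relative spread of the glial lists. The complement gene C1qa was at 34.2, 31.5 and 38.1 FPKM, the growth factor receptor Csf1r at 13.1, 14.9 and 14.7 FPKM and the purinergic receptor P2ry12 at 5.996, 6.84 and 7.03 FPKM. Of the reactive astrocyte list, 7 of 14 genes had a mean of at least 1 FPKM, and apart from Gfap and Serpina3n none exceeded a mean of 10 FPKM.

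The oligodendrocyte list moved as a block. All 11 members were highest in WT2 and lowest in WT3, and the sums were 694, 1103 and 482 FPKM, a range of 2.29-fold. The myelin gene Mobp was at 132, 204 and 87.6 FPKM and the myelin basic protein gene Mbp at 50.4, 69.3 and 37.8 FPKM. The nucleotidase gene Cnp and the adhesion gene Mag had 75.02, 118 and 52.1 FPKM and 34.5, 55.3 and 27.8 FPKM. Precursor cell genes differed less, with Pdgfra at 6.37, 5.95 and 6.68 FPKM and Olig1 at 35.1, 41.6 and 32.1 FPKM. The reason for this order of the libraries was not tested.

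Endothelial genes summed to 82.7, 80.3 and 97.9 FPKM, with the tight junction gene Cldn5 at 15.6, 16.9 and 21.6 FPKM and the glucose transporter Slc2a1 at 22.4, 21.8 and 25.5 FPKM. All 10 were expressed and 8 of the 10 were highest in WT3. Genes of neighbouring structures were present and uneven. All 6 ependymal genes were highest in WT2, with the ciliary regulator Foxj1 at 2.79, 7.26 and 2.196 FPKM. The retinol and thyroxine carrier Ttr, made by choroid plexus and by liver, was at 76.1, 114 and 71.96 FPKM, but the other 7 choroid plexus genes together reached only 6.66, 8.297 and 7.33 FPKM. Meningeal genes were highest in WT3 for 7 of 8 members, with the growth factor gene Igf2 at 7.67, 3.05 and 15.8 FPKM and decorin (Dcn) at 10.9, 6.99 and 15.1 FPKM. The red blood cell genes were highest in WT2 and lowest in WT1 for all 5 members, with Hbb-bs at 142, 361 and 276 FPKM and Hba-a2 at 157, 333 and 265 FPKM. The hemoglobin genes occur in near-identical pairs, so the split between them is uncertain.

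Genes of transmitter release were among the most abundant and even groups. All 18 were expressed, with a median of 139.9 FPKM and sums of 2601, 2456 and 2623 FPKM. Synaptophysin (Syp) led at 324, 300.0 and 342 FPKM, before the fusion machinery genes Vamp2 (294, 274 and 300.2 FPKM) and Snap25 (261, 257 and 239 FPKM). Syn2, a synapsin, stood out with WT2 below the other libraries at 109.6, 54.5 and 105 FPKM, while Syn1 was at 165, 152 and 147 FPKM. Of the postsynaptic density list all 20 were expressed, and the scaffold genes were far below Nrgn and Camk2a. Dlg4, which encodes PSD-95, had 49.7, 48.2 and 48.3 FPKM and Homer1 6.58, 6.51 and 5.91 FPKM. Shank2 was lower in WT3 than in the others, at 15.5, 14.05 and 5.29 FPKM.

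**Figure D3:**
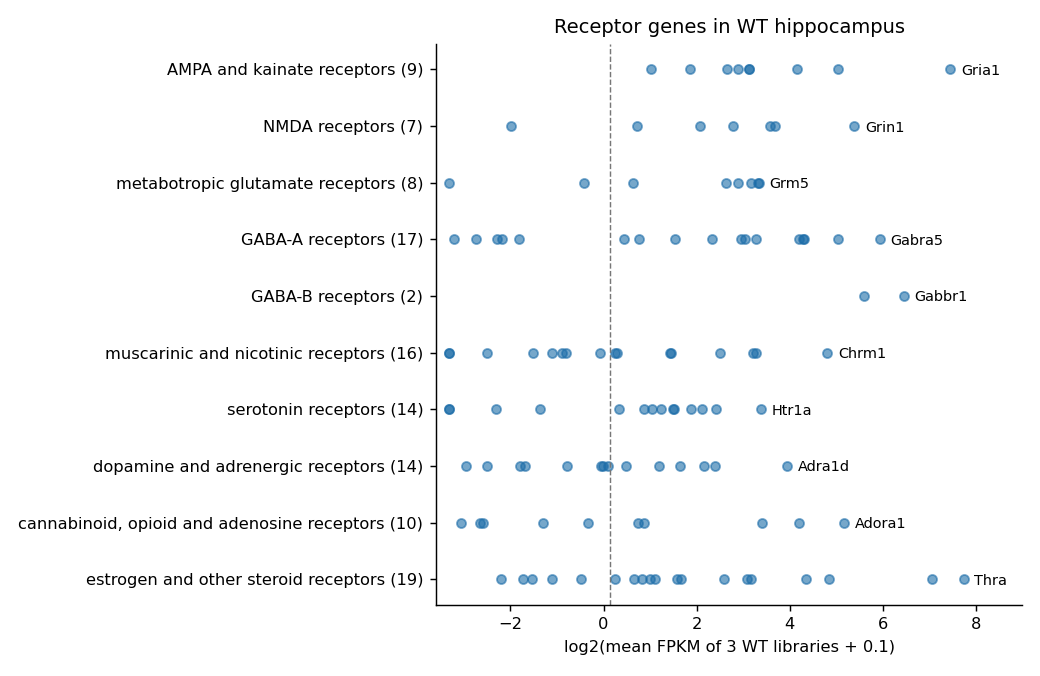
Mean level over the 3 WT libraries of every listed receptor gene as log2(FPKM + 0.1), 1 row a family with its number of genes in parentheses and 1 point a gene. The most abundant member of each family is named, and the dashed line marks 1 FPKM. Gria1 is the highest of the neurotransmitter receptor genes by FPKM.

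Of the genes of the AMPA receptor, which carries fast excitatory transmission, Gria1 had the highest FPKM, at 176, 183 and 163. Gria2, Gria3 and Gria4 were lower, with 15.8, 21.1 and 16.4 FPKM, 8.63, 11.5 and 5.55 FPKM and 6.18, 6.89 and 8.72 FPKM, and the ranges of Gria3 and Gria4 overlapped. For NMDA receptors the obligatory subunit Grin1 was at 43.8, 43.4 and 37.7 FPKM. Grin2a and Grin2b were at 12.9, 14.1 and 11.1 FPKM and 12.1, 12.9 and 10.6 FPKM and their ranges overlapped. Grin3b was below 1 FPKM in every library. Grm5, Grm3 and Grm2 shared the top of the metabotropic glutamate receptors at 10.01 ± 0.514, 9.95 ± 0.777 and 8.85 ± 0.771 FPKM, again with overlapping ranges. Grm6 was listed at 0 in all 3 libraries.

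Among GABA-A receptor genes Gabra5, whose subunit mediates tonic inhibition in hippocampal pyramidal cells, was the highest at 55.8, 70.1 and 57.4 FPKM. Of the 17 members, 12 had a mean of at least 1 FPKM. The metabotropic GABA-B receptor genes Gabbr1 and Gabbr2 were at 85.9, 90.7 and 85.9 FPKM and 47.9, 50.5 and 46.05 FPKM.

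For the modulatory transmitters, the muscarinic receptor Chrm1 was at 26.3, 28.7 and 28.8 FPKM, the serotonin receptor Htr1a at 10.1, 10.02 and 10.9 FPKM, the adrenergic receptor Adra1d at 17.4, 15.8 and 12.9 FPKM and the adenosine receptor Adora1 at 35.1, 33.9 and 38.9 FPKM. Each was the highest of its family and did not overlap with the next gene in order. The cannabinoid receptor Cnr1 had 14.2, 19.7 and 20.6 FPKM. The dopamine receptor Drd5 at 4.51, 5.42 and 5.51 FPKM was above Drd1 at 1.31, 1.18 and 1.41 FPKM and Drd2 at 0.907, 0.935 and 0.8302 FPKM. The nicotinic subunit Chrna4 ranged over 1.53, 0.819 and 5.57 FPKM. The genes Chrna6, Chrnb4, Htr2b and Htr3b were listed at 0 in all 3 libraries.

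Steroid receptors act as ligand-bound transcription factors, whereas GPR30 is a G protein-coupled receptor for estrogen. The nuclear thyroid hormone receptor Thra, listed with them, was the most abundant at 212, 208 and 219 FPKM, and the membrane progesterone receptor component Pgrmc1 had 141, 116 and 142 FPKM. The mineralocorticoid receptor Nr3c2, which is typical of hippocampus, was at 21.6, 22.6 and 17.1 FPKM. The glucocorticoid receptor Nr3c1 was lower and uneven at 1.44, 1.83 and 5.97 FPKM. The progesterone receptor Pgr was at 1.29, 0.766 and 1.22 FPKM.

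By FPKM, Gper1 was the highest of the 3 estrogen receptor genes, but at a low level, with 0.797, 1.15 and 3.05 FPKM. WT1 was below 1 FPKM, WT2 just above, and WT3 was over 2-fold higher than either. The counts were 132, 207 and 490. Esr1, which encodes estrogen receptor alpha, was at 0.192, 0.2300 and 0.179 FPKM, and Esr2, which encodes estrogen receptor beta, at 0.171, 0 and 0.176 FPKM. The lowest Gper1 FPKM lay above the highest Esr1 FPKM. Of Esr1 there were 171, 223 and 155 counts and of Esr2 38, 0 and 38. In counts Gper1 was below Esr1 in WT1 and WT2 and above it in WT3, so their order depended on the unit. The aromatase gene Cyp19a1, which makes estradiol from testosterone, had no count in any library. The neuronal cholesterol hydroxylase Cyp46a1, the most abundant gene of the steroid list, was at 38.1, 38.5 and 44.9 FPKM, and Hsd11b1, which regenerates glucocorticoid, was even at 8.44, 8.45 and 8.46 FPKM.

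Of 13 genes on the GPR30 pathway that the study named, 12 had a mean of at least 1 FPKM. Gnas, which encodes the stimulatory G protein alpha subunit, was at 100.4, 97.1 and 93.1 FPKM, the calcium-stimulated adenylyl cyclase Adcy1 at 70.7, 81.5 and 66.3 FPKM and the protein kinase A catalytic subunit gene Prkaca at 79.5, 82.2 and 82.9 FPKM. Creb1, the factor phosphorylated by protein kinase A, was listed at only 0.411, 0.476 and 1.05 FPKM. The ubiquitin ligase gene Pja1, on the X chromosome, was at 56.04, 45.9 and 61.4 FPKM. Its relative Pja2 had 38.4, 36.9 and 36.4 FPKM. Serpina3n, a secreted protease inhibitor of astrocytes, was at 31.1, 37.3 and 22.3 FPKM and was lowest in WT3. In this it resembled neither Gper1 nor Pja1, which were both highest in WT3. With 3 libraries no likeness of pattern was ranked.

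Genes that respond to activity and to the time of day differed little between the libraries as groups. The immediate early genes summed to 182, 190.4 and 182 FPKM and 19 of 20 had a mean of at least 1 FPKM. Egr1 was at 24.2, 27.1 and 25.9 FPKM, Arc, whose mRNA travels to dendrites, at 24.7, 31.9 and 21.6 FPKM and Fos at 2.75, 3.52 and 3.96 FPKM. Nr4a3 departed from the group, at 14.2, 13.97 and 3.12 FPKM. In the clock list all 16 were expressed, with sums of 193, 201 and 201 FPKM. The clock output gene Dbp was at 18.04, 18.2 and 19 FPKM, Per1 at 11.5, 11.03 and 12.8 FPKM and Arntl at 4.14, 4.26 and 5.04 FPKM. The related factors Tef and Hlf went opposite ways, with 25.9, 44.3 and 13.4 FPKM and 17.9, 10.3 and 24.2 FPKM. The metallothionein gene Mt2, inducible by glucocorticoid, was at 182, 137 and 187 FPKM and Fkbp5 at 8.85, 8.403 and 9.98 FPKM.

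Energy metabolism genes were abundant, with all 16 glycolysis genes expressed and a median of 134 FPKM. Aldoa led at 677, 507 and 609 FPKM, while Gapdh, often used as a reference, was listed at only 29.7, 27.00 and 36.1 FPKM, by its mean below all others of the list except Pfkp at 14.5, 15.5 and 15.3 FPKM. Among 16 reference genes for quantitative PCR, Eef1a1 was the highest and the TATA-binding protein gene Tbp the lowest at 1.72, 1.597 and 1.47 FPKM. Hprt was at 97.4, 88.03 and 94.8 FPKM, Actb at 267, 279.9 and 243 FPKM and Ywhaz at 147, 136 and 151 FPKM.

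The parent-of-origin and sex-linked genes also gave a check of the animals. Of 30 imprinted genes 20 had a mean of at least 1 FPKM, led by Snrpn at 401, 382 and 378 FPKM. The neuronatin gene Nnat was higher in WT1, at 98.2, 38.2 and 51.4 FPKM, than Ndn, which was even at 68.2, 61.4 and 70.5 FPKM. Xist, the RNA of the inactive X chromosome, was at 20.2, 20.2 and 18.02 FPKM. The Y-linked genes Sry, Uty and Zfy1 had no signal, and the highest value among Kdm5d, Ddx3y and Eif2s3y was 0.131 FPKM, for Eif2s3y in WT3. Of 183 protein coding genes listed on the Y chromosome 2 were expressed, Gm47283 at 15.96, 18.2 and 3.45 FPKM and Gm21860 at 2.06, 1.25 and 1.06 FPKM. Both lie in the pseudoautosomal region, which the X chromosome also carries. The median level of expressed protein coding genes was 7.67 FPKM for 358 genes of the X chromosome and 7.03 FPKM for 10734 autosomal genes.

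**Figure D4:**
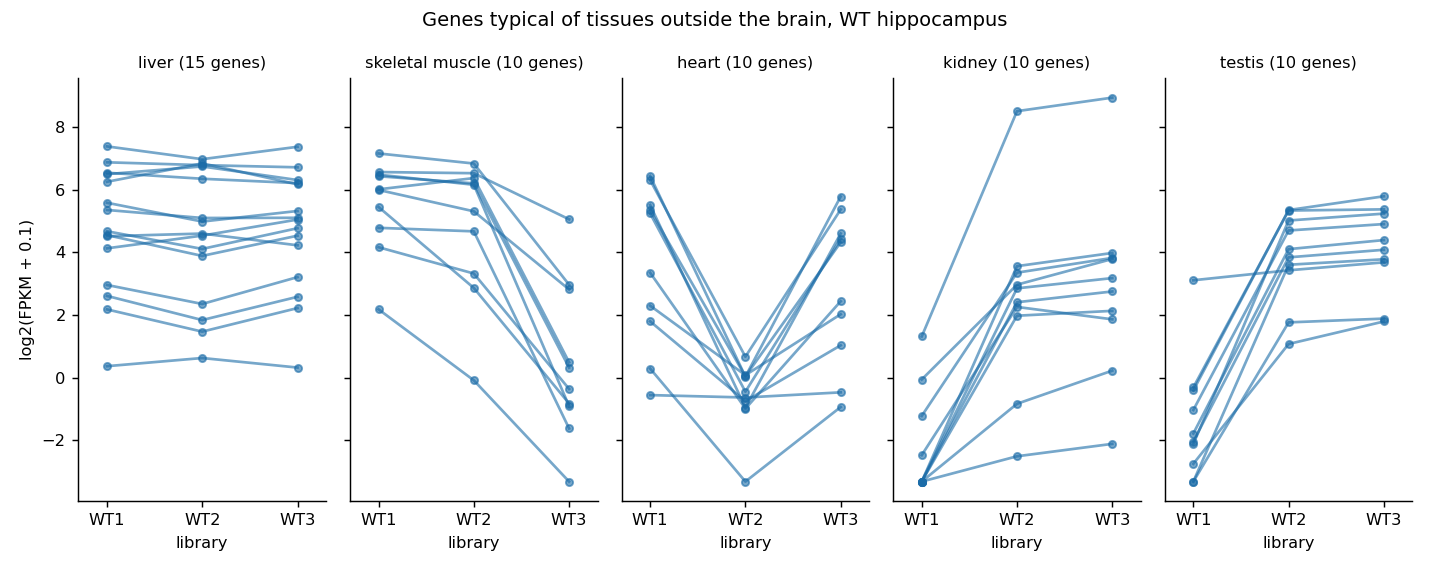
Genes typical of liver, skeletal muscle, heart, kidney and testis as log2(FPKM + 0.1) in WT1, WT2 and WT3, 1 panel a tissue, 1 line a gene and 1 point a library. Liver lines run nearly level, muscle genes are low in WT3, heart genes low in WT2, and kidney and testis genes low in WT1.

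Transcripts of organs outside the brain formed a pattern of their own that differed from library to library. The heart and kidney lists were made after these values had been seen, and the muscle, liver and testis lists were fixed with earlier results known. Liver genes were present in all 3 libraries, with sums of 739.9, 696 and 692 FPKM. Albumin (Alb) was at 167, 126 and 165 FPKM, the apolipoprotein Apoa2 at 117, 110.1 and 105 FPKM and the major urinary protein gene Mup3 at 40.8, 34.1 and 34.2 FPKM. Without Ttr and Trf, which choroid plexus and oligodendrocytes also express, the other 13 genes summed to 574, 474 and 541 FPKM. All 15 genes of the list were at 1 FPKM or more in every library.

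Skeletal muscle genes were found in WT1 and WT2 and were low in WT3. The muscle actin Acta1 was at 143, 114 and 7.71 FPKM, the fast troponin C gene Tnnc2 at 89.1, 71.3 and 0.431 FPKM and the fast myosin Myh4 at 43.5, 7.17 and 0.463 FPKM. All 10 genes were lowest in WT3, and the 9 without Pvalb summed to 539, 424 and 18.9 FPKM. Heart genes followed another order, with WT1 highest, WT3 intermediate and WT2 near the floor for most members. The ventricular myosin light chain Myl2 was at 79.01, 1.49 and 41.2 FPKM, the cardiac actin Actc1 at 86.6, 0.922 and 54.9 FPKM and the cardiac myosin Myh6 at 37.7, 0.632 and 21.5 FPKM. The sums of the 10 genes were 309, 6.78 and 174 FPKM, and all 10 were lowest in WT2.

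Kidney and testis genes were found in WT2 and WT3 and nearly absent from WT1. The kidney androgen-regulated protein gene Kap reached 2.38, 364 and 491 FPKM and the kallikrein Klk1 0, 11.7 and 15.7 FPKM. In WT1, 6 of the 10 kidney genes were listed at 0. The protamine Prm2, which packs DNA in spermatids, was at 0.703, 40.2 and 41.3 FPKM and the transition protein Tnp2 at 0.652, 40.7 and 55.2 FPKM. All 10 testis genes were lowest in WT1 and highest in WT3, although Odf2, which is also expressed elsewhere, differed less between libraries, at 8.52, 10.6 and 12.7 FPKM. Without it the list summed to 2.25, 188 and 222 FPKM. The animals are labelled female, and the 6 Y-linked genes named above were at or near 0 in the same libraries.

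Smaller signals had their own distribution. The neutrophil gene S100a9 was at 3.95, 16.5 and 0 FPKM, and none of the 7 neutrophil genes had a signal in WT3. The pituitary hormone genes Gh and Prl were at 6.98, 0.426 and 0 FPKM and 4.88, 1.35 and 0.1701 FPKM. The adipose gene Cfd was at 6.38, 4.63 and 0.6602 FPKM. No lung or pancreas gene had a mean of 1 FPKM. In the library where each was highest, the muscle, heart, kidney and testis lists made up 0.2105%, 0.103%, 0.189% and 0.0794% of the summed FPKM of a library. The source of these transcripts was not tested.

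The promoters of 1 kidney and 1 skeletal muscle gene are shown beside that of the postsynaptic gene Nrgn. The kidney list was low in WT1 and the muscle list in WT3. The promoters are reference sequences that were not read from these libraries, so they do not bear on differences between them. A promoter here is the stretch from 250 bases before to 50 bases after the RefSeq start of a gene (GRCm38.p6). The TATA motif TATAAA, searched on both strands as TATAAA or TTTATA, is in capitals. It occurs in Kap (chr6:133853618-133853917, - strand) and in Acta1 (chr8:123894726-123895025, - strand) and not in Nrgn (chr9:37552696-37552995, - strand):
Kap: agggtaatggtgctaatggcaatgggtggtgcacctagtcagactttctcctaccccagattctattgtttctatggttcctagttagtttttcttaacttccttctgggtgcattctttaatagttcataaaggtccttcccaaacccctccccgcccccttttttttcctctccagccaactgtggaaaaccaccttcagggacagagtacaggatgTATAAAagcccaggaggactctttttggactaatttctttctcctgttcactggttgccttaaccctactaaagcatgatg
Acta1: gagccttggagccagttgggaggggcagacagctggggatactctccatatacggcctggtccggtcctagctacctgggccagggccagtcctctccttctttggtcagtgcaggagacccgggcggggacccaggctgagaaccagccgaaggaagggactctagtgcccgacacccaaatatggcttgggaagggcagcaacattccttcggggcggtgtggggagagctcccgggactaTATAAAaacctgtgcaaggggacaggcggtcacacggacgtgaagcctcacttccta
Nrgn: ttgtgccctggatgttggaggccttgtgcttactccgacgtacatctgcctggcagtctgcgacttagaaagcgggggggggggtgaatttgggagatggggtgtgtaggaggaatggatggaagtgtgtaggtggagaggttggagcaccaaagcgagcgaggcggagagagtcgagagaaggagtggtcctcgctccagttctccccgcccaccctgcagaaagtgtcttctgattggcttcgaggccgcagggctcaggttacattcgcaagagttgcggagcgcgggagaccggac
Of all 27025 promoters, 14.2% hold the motif. It was found in 5 of 10 kidney promoters, 4 of 8 skeletal muscle promoters, 3 of 10 heart promoters and 3 of 12 liver promoters, but in 1 of 9 testis promoters. Among brain lists, it was found in 2 of 10 astrocyte, 0 of 9 oligodendrocyte, 0 of 6 excitatory neuron, 0 of 14 transmitter release and 0 of 12 postsynaptic density promoters. Promoters were missing for part of most of these lists. They were found for only 75%, 77.8% and 60% of members in the last 3 lists. For skeletal muscle and for liver they were found for 80%. The motif was in 6.42% of 8776 promoters of expressed protein coding genes. Among the 300 most abundant nuclear ones it was in 10.7% of 224 promoters. Promoters were found for 79.03% and 74.7% of these genes. Shares with missing promoters are incomplete, and no comparison between lists was drawn from them. A match is a run of letters and does not show a binding site.

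**Figure D5:**
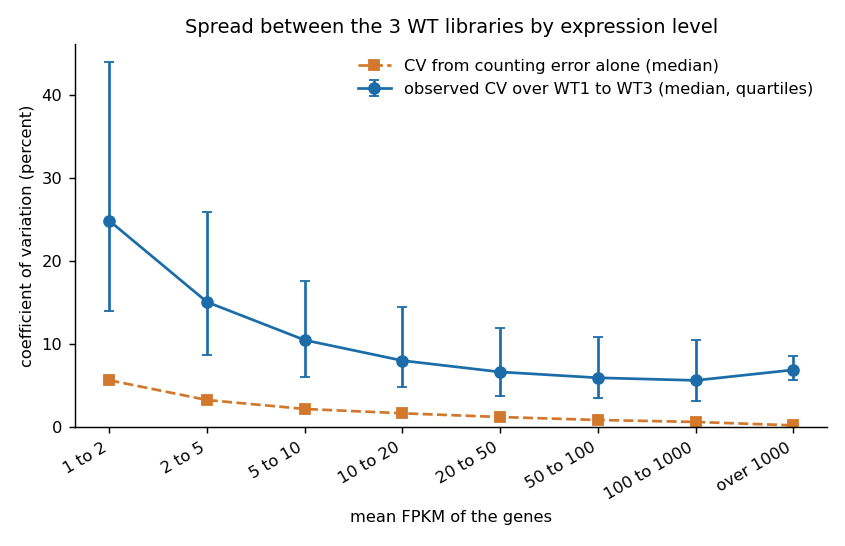
Coefficient of variation (CV, SD divided by mean, in percent) of FPKM over the 3 WT libraries for genes binned by mean FPKM. Circles give the median with quartiles as bars, and squares the median CV that counting error alone would give. Observed CVs fall from 24.8% at 1 to 2 FPKM to 5.65% at 100 to 1000 FPKM and stay above the counting error in every bin.

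Over 14118 genes with a mean of at least 1 FPKM, the median CV between libraries was 11.8%, and 42.7% of genes had a CV under 10%. Counting error alone, as the inverse square root of the mean count, would give a median of 2.52%. In genes at 1 to 2 FPKM the median CV was 24.8%, in genes at 10 to 20 FPKM 8.02% and in genes at 100 to 1000 FPKM 5.65%. The common biological coefficient of variation estimated by edgeR from the counts was 0.312, and the median along its trend with abundance 0.233. Across genes the log2(FPKM + 0.1) values of 2 libraries had Pearson correlations of 0.906 (WT1 and WT2), 0.899 (WT1 and WT3) and 0.926 (WT2 and WT3). These are correlations across genes, which are not independent replicates. The highest library was over 2-fold the lowest for 1984 genes (14.1%). WT1 was over 2-fold below both others for 454 genes, against 286 for WT2 and 288 for WT3.

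Among genes at 50 FPKM or more, the 10 of smallest CV were nearly level. The translation initiation factor Eif4b was at 56.5, 56.4 and 56.4 FPKM, the ribosomal fusion gene Fau at 148, 147 and 147 FPKM and the nucleotide hydrolase Hint1 at 123, 124 and 124 FPKM. The neuronal microtubule protein Map1a was at 103, 103 and 103 FPKM, the clathrin adaptor Ap2m1 at 84.1, 84.4 and 83.8 FPKM and the telencephalic adhesion molecule Icam5 at 79.5, 79.9 and 80.2 FPKM. Smap2, Hnrnpa1 and Ube2b were also among these 10, and none of the 10 had a CV above 0.445%. They were picked from all genes at this level for being close.

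The 20 genes of largest CV at 5 FPKM or more fell into kinds that could be described from the annotation. For 4 of the 20 an expressed gene model overlapped on the same strand, so that the same reads could be given to either. Pcdhga2, a gamma-protocadherin whose isoforms share their last exons, was at 3.36, 100.3 and 4.94 FPKM while the overlapping Pcdhga9 was at 83.8, 0.882 and 84.6 FPKM. Their summed counts were 31518, 33707 and 31403, with a CV of 1.74% after division by the library totals. Gdf1 was at 0.106, 0.1396 and 29.00 FPKM and Cers1, which shares its transcript, at 25.8, 23.00 and 13.7 FPKM, and the CV of 171% for Gdf1 alone was 6.39% for the sum. A model of Zc3h11a was at 1.78, 15.7 and 1.88 FPKM and Gm38394 at 9.503, 0.3403 and 9.14 FPKM, with a CV of 4.38% for their summed counts. Zbed6 and a second Zc3h11a model also overlap it, and with them the CV of the sum was 5.80%. For Pdxp (55.6, 3.75 and 6.22 FPKM) and Gm49510 (0, 22.2 and 23.2 FPKM) the sum remained uneven, with a CV of 26.5%. The values of the 8 gene models whose FPKM is given here are uncertain one by one.

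Of the remaining 16 genes, Myh4, Atp2a1 (46.2, 14.2 and 0.449 FPKM), Casq1 (12.3, 4.55 and 0.1099 FPKM) and Hspb7 (14.8, 0.879 and 5.44 FPKM) are striated muscle genes, S100a9 is a neutrophil gene, and Mup22 (2.16, 0 and 17.8 FPKM) belongs to the near-identical major urinary protein genes, among which reads cannot be divided with certainty. The others differed in a single library. Scd2, a fatty acid desaturase of the brain, was the most abundant of them, at 48.8, 51.9 and 252 FPKM, and WT3 stood apart. Slc36a1 (2.81, 2.05 and 12.9 FPKM), Gm14150 (3.11, 2.98 and 41.96 FPKM) and AC157548 (2.12, 2.19 and 15.9 FPKM) were also high in WT3. Abi2 (2.64, 15.9 and 2.597 FPKM), Ust (3.43, 19.2 and 3.56 FPKM), Vkorc1l1 (1.65, 14.04 and 1.91 FPKM), Pter (0.426, 18.1 and 0.351 FPKM) and Gm14648 (4.99, 43.01 and 6.73 FPKM) were high in WT2, and Gm12428 (40.04, 6.22 and 5.35 FPKM) in WT1. For each of these genes the other libraries lay closer to each other than to the high one. The reason for these differences was not tested.

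Each library was also set against the mean of the other 2 at 5 FPKM or more. In WT1 the genes farthest below were Gm49510, Klk1, Odf1, Sept2 and Gsg1, all listed at 0 there, with Sept2 at 0, 10.4 and 11.5 FPKM and Gsg1, a germ cell gene, at 0, 7.73 and 8.602 FPKM. In WT2 the cardiac genes Actc1 and Myl3 (45.5, 0.414 and 24.2 FPKM) were among the lowest, and in WT3 the muscle genes Tnnt3 (86.1, 73.5 and 1.15 FPKM), Tnnc2, Myl1 (27.4, 25.3 and 0.224 FPKM) and Casq1. The genes farthest above in WT1 were Myh4, Pdxp, Gm12428, Atp2a1 and Casq1. In WT2 they were Pter, Pcdhga2, Zc3h11a, S100a9 and Vkorc1l1, and in WT3 Gdf1, Mup22, Gm14150, AC157548 and Slc36a1.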

How the data were processed

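Hippocampal RNA was sequenced as poly(A)-selected, strand-marked libraries with unique molecular identifiers. Per the submitters' processing notes, cutadapt 1.9, HISAT2 2.0.4, UMI-tools and StringTie 1.3.4d were used with build GRCm38; the program that counted reads was not given in the sources used here. The authors deposited raw counts and FPKM per gene, and FPKM of 0.0001 marks no signal and was set to 0. From these, means, SDs, CVs and sums over gene lists were computed for the 3 WT libraries with Python 3.11.15, and dispersion was fitted to the counts with edgeR 4.0.16, whose script was tested on simulated data. The members and gene lists were chosen with earlier results of these data known, and the lists for heart, kidney, lung, pancreas, intestine and stomach, skin, adipose tissue, lymphocytes and neutrophils after the WT values were seen. Of a symbol with several gene models, the one of highest mean FPKM was used. Gene class was read from the deposited isoform types, and a gene with any protein coding isoform counted as protein coding. Genes were named by rule: the 30 of highest mean FPKM and 15 of highest count, the first 3 of each class with at least 20 genes at 1 FPKM, the 20 of largest CV at 5 FPKM or more, the 10 of smallest CV at 50 FPKM or more, the 5 farthest above and below in each library, listed genes as needed, and Gper1, Pja1 and Serpina3n. Some genes of these sets are not reported here. Sequences came from GENCODE vM21 and RefSeq and were aligned with Biopython 1.88. No p-value was computed, no batch is given by the labels, and 0 columns were left unmapped.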

Additional observations from a re-analysis of the deposited data

How the results depend on the processing

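The number of expressed genes stayed within 1.5 times its value under all 8 alternatives, from 12659 up to 18571 at 10 counts or more in all 3 libraries. Shares depended on the unit. As a share of counts the 100 most abundant genes held 18.7%, without mitochondrially encoded genes 24.9% of summed FPKM, and without these and their chromosome 1 copies, an alternative chosen after seeing the data, 17.7%. As a share of counts, protein coding genes held 95.0%, unprocessed pseudogenes 1.75%, processed pseudogenes 1.01% and miRNA models 0.0323%, and without mitochondrially encoded genes the first 3 held 81.3%, 9.66% and 5.69% of summed FPKM. The median CV was 31.3% over all genes with a signal and 7.16% at 10 FPKM or more, and leaving out each library in turn gave 8.70% to 10.5%. The median SD of log2 levels was 0.17 with a pseudocount of 0.1 and 0.14 with 1, and 0.12 to 0.15 without each library. Fewer genes or libraries in the sum are part of these alternatives by construction. The other alternatives of these results, and those of Gper1, Pja1 and Serpina3n, moved by less than the SD between libraries. For a mean over 3 libraries, leaving out 1 cannot move the value by a full SD. That outcome was fixed in advance and does not show that these means are stable. Without WT3 the mean of Gper1 was 0.972 FPKM, against 1.66 FPKM over all 3 libraries. Of 73 lists, 44 kept their highest and lowest library on a mean of log2(FPKM + 0.1) and 50 without their most abundant member. The oligodendrocyte, red blood cell, meningeal, subiculum, skeletal muscle, heart, kidney and testis lists kept both under each of these settings, and the ependymal list changed its lowest library without Rarres2. No paired analysis was possible because a single group was described. In genes at 1 to 2 FPKM counting error alone gives a median CV of 5.66%, below the 24.8% observed.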

Other observations

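Cytoskeletal genes were abundant and close between the WT libraries. All 12 tubulin genes were expressed, with sums of 2089.7, 2039.5 and 2050.0 FPKM, led by the alpha-tubulin Tuba1a at 526, 509 and 514 FPKM and the beta-tubulin Tubb2a at 363, 348 and 376 FPKM. The neuron-specific Tubb3 was at 125, 116 and 142 FPKM. The neurofilament light chain Nefl had 137, 138 and 122 FPKM and the growth cone gene Gap43 105, 89.1 and 138 FPKM. Dbn1, which encodes the spine protein drebrin, was at 58.97, 62.04 and 63.1 FPKM. Mapt, which encodes tau, differed from these with 18.9, 66.9 and 16.1 FPKM, and WT2 lay over 2-fold above both others. The muscle actins Acta1 and Actc1 followed the skeletal muscle and heart lists.

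Some genes of amyloid processing were close between the libraries and others were not. App, the amyloid precursor gene, was at 96.6, 99.1 and 96.9 FPKM and the beta-secretase Bace1 at 22.5, 22.9 and 22.5 FPKM, whereas the gamma-secretase gene Aph1a was lower in WT2 at 9.62, 5.76 and 9.98 FPKM. All 20 genes of that list had a mean of at least 1 FPKM. Among cholesterol genes Hmgcs1 was at 40.5, 44.05 and 45.8 FPKM and Scd1 at 37.6, 40.7 and 31.04 FPKM, without the rise in WT3 that its relative Scd2 showed.

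Among ubiquitin ligases of the brain, Rnf187 led at 181, 169.9 and 169 FPKM and Rnf112 followed at 116, 126 and 99.8 FPKM, both above Pja1. Trim2 was uneven at 5.49, 15.9 and 3.02 FPKM, and Ube3a, which neurons express from the maternal allele, was listed at 2.01, 0.6797 and 0.447 FPKM. Heat shock genes were even as a group, with sums of 1435, 1372 and 1322 FPKM. Interferon-induced genes were low, with Isg15 at 1.05, 3.096 and 2.43 FPKM and Irf7 at 0.385, 0.623 and 0.437 FPKM, while the class I light chain gene B2m was at 111, 107 and 84.3 FPKM.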
